A study of Mus musculus with 6 samples.

Results

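The promoter-bound fraction of Maf in adult mouse skeletal muscle was defined as every Maf peak of replicate 2 that reached, by at least 1 bp, into the 1 kb on either side of where a protein-coding transcript begins in the mm10 (GRCm38) annotation. The rule selected 1019 of the 5467 peaks, or 18.6% (95% exact binomial interval 17.6 to 19.7), and left 4448 Maf peaks elsewhere. The promoter peaks lay at 1076 of 21829 protein-coding genes, which is 4.93% of them. At 12821 genes, 58.7% of all, a transcript start lay within 1 kb of the active chromatin mark H3K27ac, and 1047 of these, 8.17%, had a promoter Maf peak. The rule used position alone and not H3K27ac, sequence or order in the peak list. H3K27ac and promoter sequence elements are common at starts in general. A difference from the rest in these is therefore not by itself particular to promoters with Maf.

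Maf is a large member of the Maf family of basic leucine zipper factors, which bind Maf recognition elements as dimers. A full element is a palindrome around an AP-1-like or CRE-like core, and each arm contains the sequence TGCTGA, the Maf half-site, which TGCTGAC extends by one base of the core. Small Maf proteins such as Mafg pair with the cap-n-collar factors Nfe2l1 and Nfe2l2 and with Bach1 on related elements at antioxidant and heme genes. Acetylation of histone H3 on lysine 27 marks active promoters and enhancers. Many mouse promoters are rich in CpG dinucleotides, whereas many promoters of tissue-restricted genes are not.

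Chromatin came from nuclei of gastrocnemius and quadriceps of wild-type mice aged 2 months. Formaldehyde-fixed and sonicated chromatin was divided evenly between an antibody to Maf (A300-613A) and one to H3K27ac (C15410196), with 2 biological replicates per antibody. No perturbed group was analysed here. The lists held 74 Maf peaks in replicate 1, 5467 in replicate 2 (peaks of 1 fixed length within each list) and 44887 and 44987 H3K27ac regions, 95415 entries in all. Library depth is unknown because no reads are counted in them, and results on the 1019 promoter peaks rest on 1 Maf library. Whole muscle contains several cell types. All 9 skeletal muscle markers had H3K27ac within 1 kb of a start, as had 18 of 18 endothelial, 17 of 18 macrophage, 17 of 18 fibro-adipogenic and tendon and 15 of 16 satellite cell markers, against 1 of 21 liver and 3 of 22 neuronal genes. Fewer cells of a type and less mark per cell cannot be told apart in such samples. A promoter Maf peak lay at 5 of the 9 muscle markers (Ckm, Atp2a1, Ryr1, Cacna1s and Eno3). The study itself names Atp2a1 and Ckm for strong Maf binding in these data, so this count is not independent of them. Such a peak lay at 0 endothelial and 0 satellite cell markers and at 1 macrophage marker (C1qa). In the fibro-adipogenic and tendon list 2 genes had one, Col1a1 and Tcf4. Tcf4 was also in the list of myogenic and Mef2 factors, so it does not stand for 1 cell type. The exact intervals for the endothelial (0 of 18) and satellite cell markers (0 of 16) reach up to 18.5% and 20.6%, so both include the shares of 4.93% of all genes and 8.17% of marked genes.

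Promoter peaks with the closest matches to the palindromic element are shown first, because they show what Maf-type sequence looks like at a transcript start. Sequences were read from GRCm38 on the strand of the gene, 5′ to 3′, and capitals mark the best match to the palindrome in the peak, which in these 8 peaks has 1 mismatch. The windows at Gstp1 and Blmh are shorter because they touch untranslated exons. Offsets run from the centre of the site to the nearest transcript start of the gene, negative upstream. The site of Mafg, a small Maf partner protein, occurs in each of its 2 promoter peaks, 496 bp downstream of one start and 65 bp upstream of another. Gstp1 encodes a glutathione transferase (site at 2 bp), Blmh the cysteine protease bleomycin hydrolase (−138 bp), Hfe a regulator of iron uptake (−64 bp), Ufl1 the ligase of the ubiquitin-like protein Ufm1 (−144 bp), Rtel1 a DNA helicase of telomeres (−78 bp), and Ryr1 the calcium release channel of the sarcoplasmic reticulum (977 bp).
Mafg, list position 486 (chr11:120633074-120633134, minus strand, intron): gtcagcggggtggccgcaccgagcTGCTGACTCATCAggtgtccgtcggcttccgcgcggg
Mafg, list position 620 (chr11:120630183-120630243, minus strand, intron): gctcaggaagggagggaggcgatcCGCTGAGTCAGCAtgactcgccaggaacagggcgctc
Gstp1 (chr19:4037969-4037997, minus strand): ctccaacgTGTTGAGTCAGCAtccggggc
Blmh (chr11:76945669-76945697, plus strand): cccgatggCGCTGACTCAGCAacgcgagg
Hfe (chr13:23710888-23710948, minus strand, between genes): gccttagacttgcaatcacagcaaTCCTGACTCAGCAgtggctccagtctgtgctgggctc
Ufl1 (chr4:25281935-25281995, minus strand, between genes): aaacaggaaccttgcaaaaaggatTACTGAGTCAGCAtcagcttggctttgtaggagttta
Rtel1 (chr2:181319631-181319691, plus strand, between genes): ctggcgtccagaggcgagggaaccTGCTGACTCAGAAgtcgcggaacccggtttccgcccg
Ryr1 (chr7:29124008-29124068, minus strand, intron): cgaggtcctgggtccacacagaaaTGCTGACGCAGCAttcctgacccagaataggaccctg

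The next sequences show less complete matches, mainly at genes of muscle contraction and metabolism. Capitals mark a palindrome with 2 mismatches at Actn3 (fast α-actinin), Eno3 (muscle β-enolase), Ak1 (adenylate kinase), Prkag3 (the γ3 subunit of AMP-activated kinase) and Fkbp5 (a glucocorticoid-responsive immunophilin). They mark 1 half-site, on either strand, at Ttn (titin), Tpi1 (triosephosphate isomerase), Phkg1 (the catalytic subunit of muscle phosphorylase kinase), Fbxo40 (a muscle ubiquitin ligase subunit), Trim7 (a ubiquitin ligase that binds glycogenin) and Eif4ebp1 (a repressor of cap-dependent translation).
Actn3 (chr19:4876938-4876998, minus strand, 941 bp, intron): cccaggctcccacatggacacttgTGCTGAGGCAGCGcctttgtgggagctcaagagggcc
Eno3 (chr11:70656502-70656562, plus strand, −670 bp, between genes): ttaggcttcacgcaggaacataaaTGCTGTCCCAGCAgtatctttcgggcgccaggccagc
Ak1 (chr2:32626189-32626249, plus strand, 781 bp, intron): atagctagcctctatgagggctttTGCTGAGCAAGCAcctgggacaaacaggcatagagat
Prkag3 (chr1:74749511-74749571, minus strand, −320 bp, between genes): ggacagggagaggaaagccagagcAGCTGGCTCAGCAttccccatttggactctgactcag
Fkbp5 (chr17:28518221-28518281, minus strand, −727 bp, between genes): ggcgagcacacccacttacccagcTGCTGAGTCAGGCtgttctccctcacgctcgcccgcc
Ttn (chr2:76982563-76982616, minus strand, −42 bp, between genes): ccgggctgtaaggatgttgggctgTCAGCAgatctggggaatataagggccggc
Tpi1 (chr6:124813146-124813199, minus strand, −102 bp, intron): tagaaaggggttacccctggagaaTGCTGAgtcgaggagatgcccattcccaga
Phkg1 (chr5:129878190-129878243, minus strand, 866 bp, intron): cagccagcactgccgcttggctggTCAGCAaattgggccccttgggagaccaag
Fbxo40 (chr16:36989860-36989913, minus strand, 580 bp, intron): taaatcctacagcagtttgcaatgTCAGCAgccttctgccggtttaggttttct
Trim7 (chr11:48837229-48837282, plus strand, −210 bp, intron): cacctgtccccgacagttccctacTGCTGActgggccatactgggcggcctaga
Eif4ebp1 (chr8:27260214-27260267, plus strand, −88 bp, between genes): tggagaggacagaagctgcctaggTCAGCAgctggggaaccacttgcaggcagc

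Most promoter peaks held no exact half-site. A pair of them is printed whole, as contrasts chosen after their values were seen. The peak upstream of Txnip, which encodes the thioredoxin-interacting protein, stood at position 18 of the list and matched none of the 24 motifs searched. The peak at Arntl, the clock factor Bmal1, held 7 matches to the CCAAT box (capitals, either strand), a number found in 2 of the 1019 promoter peaks and exceeded in none, and no Maf half-site.
Txnip (chr3:96557446-96557726, plus strand, between genes): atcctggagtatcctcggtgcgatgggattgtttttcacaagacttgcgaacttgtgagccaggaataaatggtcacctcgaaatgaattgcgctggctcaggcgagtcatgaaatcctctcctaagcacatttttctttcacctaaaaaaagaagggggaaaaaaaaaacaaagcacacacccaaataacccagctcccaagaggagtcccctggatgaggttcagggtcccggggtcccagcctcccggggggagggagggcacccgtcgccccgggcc
Arntl (chr7:113207111-113207391, plus strand, between genes): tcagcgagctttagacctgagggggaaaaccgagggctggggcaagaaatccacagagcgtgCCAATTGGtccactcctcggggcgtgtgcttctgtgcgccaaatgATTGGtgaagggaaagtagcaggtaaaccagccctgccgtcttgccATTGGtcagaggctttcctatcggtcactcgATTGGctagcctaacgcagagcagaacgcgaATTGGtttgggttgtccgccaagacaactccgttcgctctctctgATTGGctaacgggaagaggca

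Positions within the 1 kb that the rule allows are given as a description, since the rule used them. The centre lay within 100 bp of the nearest start in 333 peaks (32.7%), within 200 bp in 534 (52.4%) and within 500 bp in 819 (80.4%), with a median distance of 186 bp and quartiles of 74 and 415 bp. Upstream and downstream positions were nearly balanced, with 547 centres (53.7%) upstream, and the start itself lay inside the peak in 429 (42.1%). By the annotation, 351 centres fell between protein-coding genes, 350 in introns, 230 in untranslated exons and 88 in coding exons. The nearest start was the 5′ end of the gene in 600 peaks (58.9%), and 176 peaks (17.3%) were near alternative starts only.

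**Figure D1:**
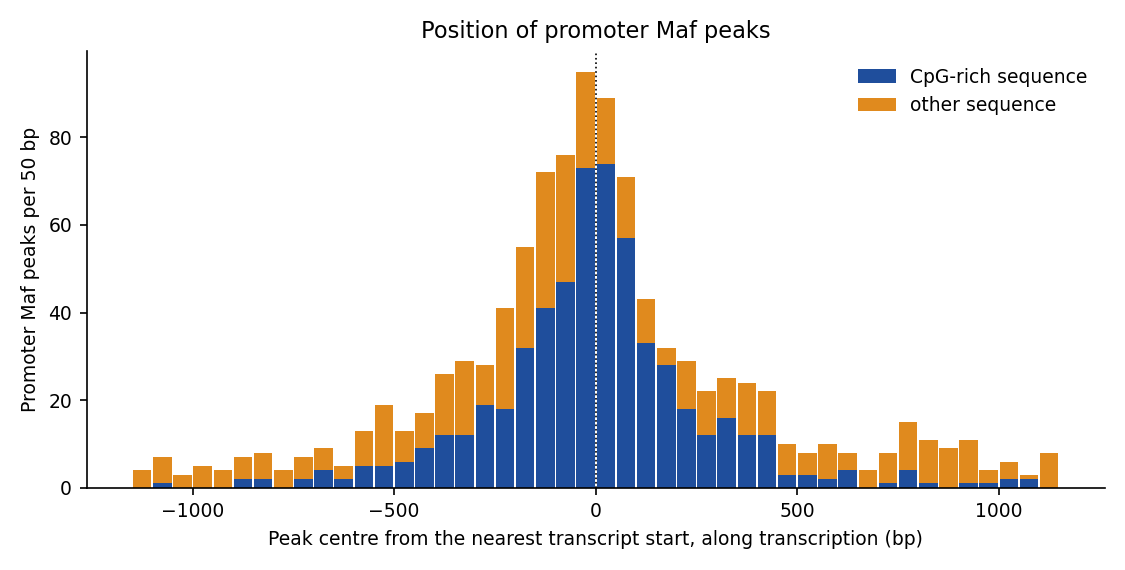
Number of promoter Maf peaks in bins of 50 bp (y axis) by the distance of the peak centre from the nearest transcript start along transcription (x axis, bp), split into CpG-rich sequence (blue) and other sequence (orange). The bins next to the start hold 95 and 89 peaks, of which 73 and 74 are CpG-rich, and peaks far from the start are mostly not CpG-rich.

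Composition changed with distance. A peak was called CpG-rich when its sequence had at least 50% G and C and an observed to expected CpG ratio of at least 0.6. By that definition 578 promoter peaks (56.7%) were CpG-rich, against 93 (2.09%) of the other Maf peaks. Windows of the same length on 5′ ends of genes were CpG-rich in 70.5% of marked genes without a promoter Maf peak. At marked genes with such a peak the share of these windows was 73.4%, and over all protein-coding genes 48.7%. Among promoter Maf peaks the share was 75.4% within 100 bp of the start, 58.2% beyond that up to 500 bp and 22% beyond 500 bp. The extended half-site TGCTGAC took the opposite order, at 14.4%, 18.7% and 25% of peaks, as did the palindrome with up to 2 mismatches, at 7.21%, 8.64% and 14%. H3K27ac overlapped 96.4%, 95.7% and 91.5% of the peaks in these classes.

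A single peak served 1 gene in 937 cases, 2 genes in 79 and 3 or more in 3. In 73 peaks (7.16%) the genes were on opposite strands, and all 73 overlapped H3K27ac. The highest of these in list order lay between Rad9b (a subunit of a DNA damage checkpoint clamp) and Vps29 (retromer), at position 3, between Zdhhc24 (a palmitoyltransferase) and Actn3, at 61, and between Hspd1 and Hspe1, the mitochondrial chaperonins, at 74. Further pairs were Ccdc122 and Lacc1 (position 131), Idh1 and Pikfyve (201), Alg2 and Sec61b (204), Armc5 and 9130023H24Rik (209), Aldh6a1 and Lin52 (216), Psmc5 and Ftsj3 (294), and Tmem175 and Gak (310). Which gene of a pair a peak concerns cannot be told from position. Conversely, 28 genes had 2 promoter peaks and none had more. They included the calcium pump Atp2a1 (positions 13 and 149), Actn3 (61 and 124), Mafg (486 and 620), the splicing factor Rbfox1 (386 and 3601), the kinase Map2k2 (484 and 2322), the lysosomal regulator Tfeb (1235 and 4830), and the actin-binding proteins Nexn (949 and 1832) and Xirp2 (3338 and 3704). At the edge of the rule, the peaks nearest the limit on the inside were at Zfp36 (998 bp from peak edge to start), Cd276 and Sesn3 (993 bp each), Sesn1 and Irf2 (986 bp each). Those nearest outside it were at Ccdc171 (1007 bp), Klf13 (1011 bp), Speg (1014 bp), Ercc1 (1028 bp) and Tnrc18 (1032 bp).

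The order of the list was used as a stand-in for peak strength, which the lists do not state. The first 20 promoter peaks stood between positions 1 and 74, and all 20 overlapped H3K27ac. The list opened with the peak 114 bp upstream of Cltc, the clathrin heavy chain, where the only motif match of the 24 searched was 1 GC box. Muscle and membrane proteins among the 20 were Atp2a1 (13), Synm (synemin, an intermediate filament protein, 23), Ryr1 (26) and Actn3 with Zdhhc24 (61). Mitochondrial genes were Mrpl45 (a mitochondrial ribosomal protein, 19), Mtpap (the mitochondrial poly(A) polymerase, 56) and Hspd1 with Hspe1 (74). Transport and signaling genes were Txnip (18), Slc38a2 (a neutral amino acid transporter, 46), Ksr1 (a scaffold of the MAP kinase cascade, 54), Lifr (the leukemia inhibitory factor receptor, 55), Slc6a9 (a glycine transporter, 69) and Lrrk1 (a kinase, 71). The remaining peaks were at Rad9b with Vps29 (3), Blmh (22), Ptov1 (31), Fkbp5 (34), Hhatl (59) and Trim7 (73). Of the 20, 10 were CpG-rich and 12 held at least 1 half-site TGCTGA.

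Replicate 1 gave a check on 5 promoter peaks. Of its 74 peaks, 5 (6.76%, interval 2.23 to 15.1) met the same rule, and all 5 overlapped a promoter peak of replicate 2 and H3K27ac. They lay at Blmh (position 6 in replicate 1 and 22 in replicate 2), Epb41, which encodes the membrane skeleton protein 4.1 (33 and 244), Mafg (40 and 620), Kctd12, which encodes an auxiliary subunit of GABA-B receptors (45 and 573), and Ggt5, which encodes a γ-glutamyltransferase (58 and 982). The palindrome with up to 2 mismatches occurred in the replicate 2 peaks of Blmh, Epb41, Mafg and Ggt5, and Kctd12 had no half-site. No other promoter peak had a counterpart in the short replicate 1 list. A replicate 1 peak overlapped 0.491% of promoter peaks and 1.12% of the other Maf peaks (5 of 1019 and 50 of 4448).

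**Figure D2:**
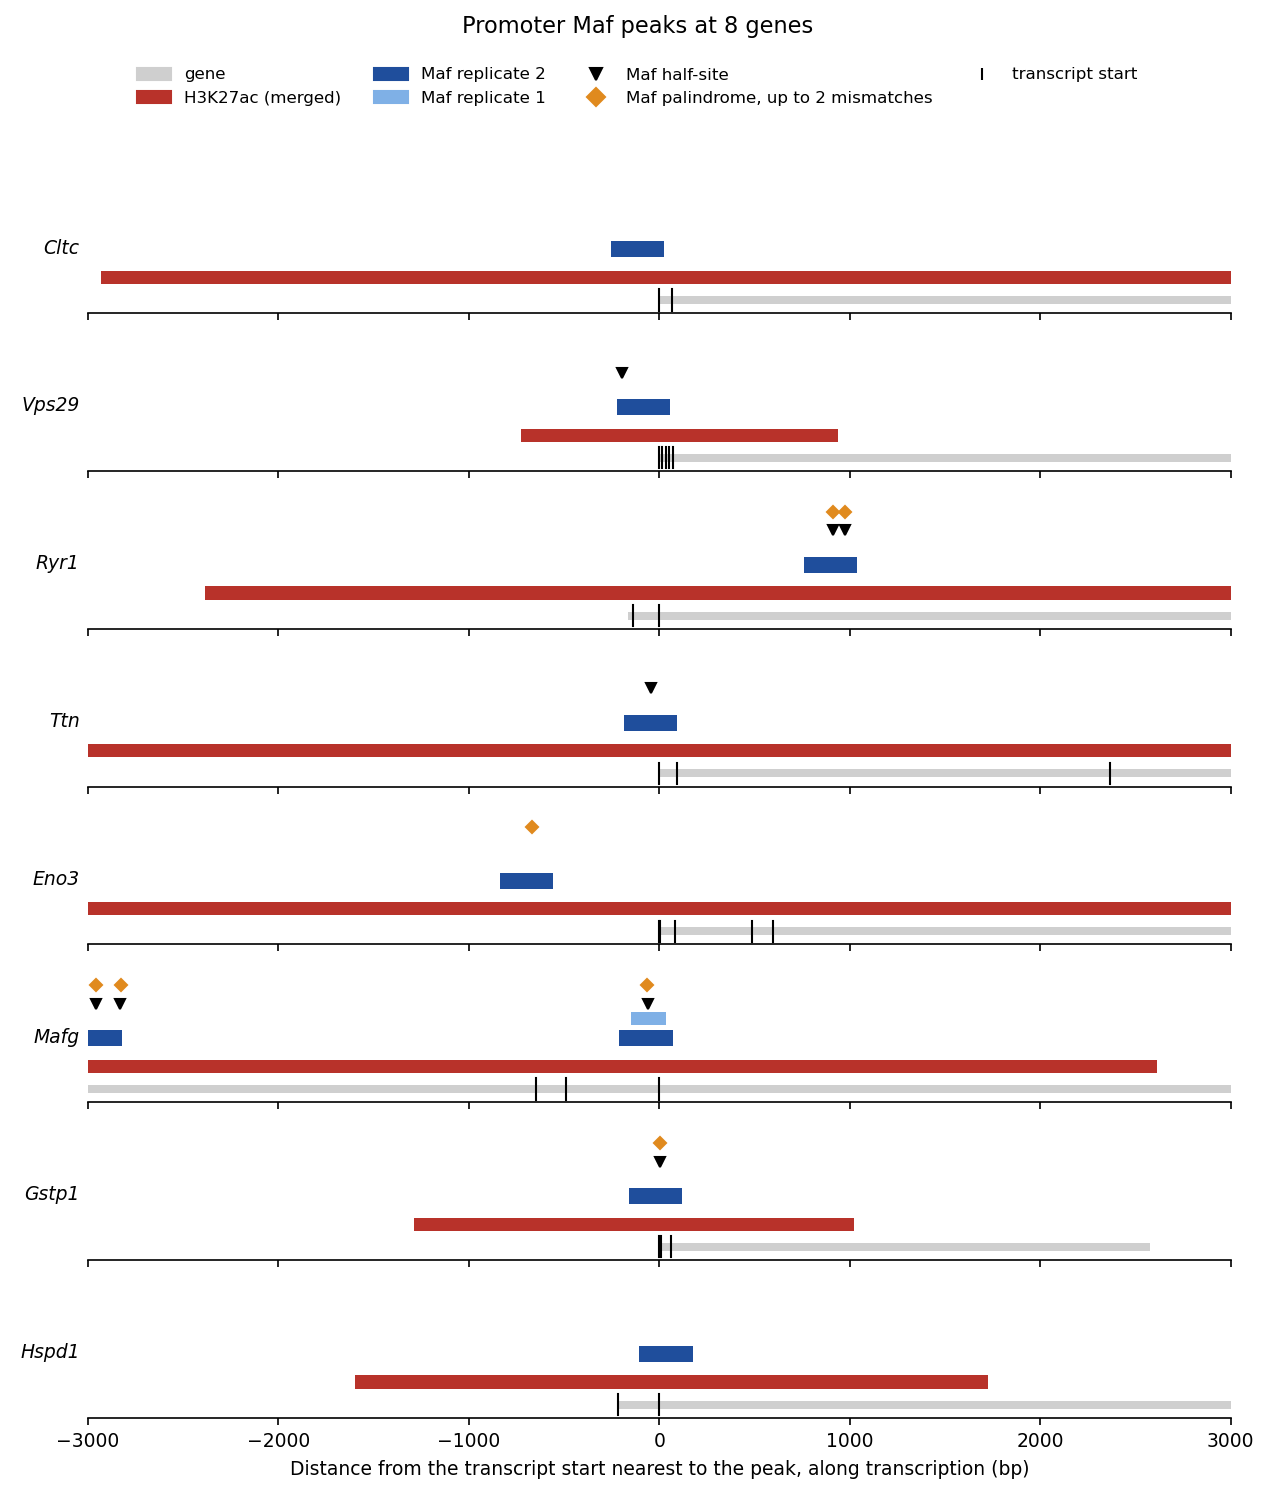
Maps of 8 promoters, with distance from the transcript start nearest to the peak on the x axis (bp, along transcription). Blue bars are Maf peaks (dark, replicate 2; light, replicate 1), red bars merged H3K27ac regions, gray bars the gene, ticks transcript starts, triangles Maf half-sites and diamonds palindromes with up to 2 mismatches, both drawn only inside replicate 2 peaks. Sites are seen in the peaks of Vps29, Ryr1, Ttn, Eno3, Mafg and Gstp1 and in neither peak of Cltc and Hspd1, and a replicate 1 peak is seen only at Mafg.

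H3K27ac accompanied nearly all promoter Maf peaks. A region of either replicate overlapped 969 of 1019 promoter peaks (95.1%, interval 93.6 to 96.3) and 2823 of 4448 other Maf peaks (63.5%, 62.0 to 64.9), a difference of 31.6 percentage points (two-sided Fisher's exact test, p = 4.59e-110). Peaks are not replicates, so this p and those on motifs describe the replicate 2 list and not the spread between animals. Both H3K27ac replicates overlapped 947 promoter peaks (92.9%) and 56.7% of the others. At the level of genes, 97.3% of those with a promoter Maf peak had H3K27ac at a start, against 58.7% of all protein-coding genes. Promoter H3K27ac regions that overlapped any Maf peak of replicate 2 had a median length of 3571 bp (1261 regions), and those without one 2063 bp (11775 regions). The part of region length in the overlap was not tested.

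Promoter peaks stood higher in the list than the other Maf peaks, through a fall towards its end and not a rise at its head. With the list divided into 10 equal parts, their share was 22.7% in each of the first 3, stayed between 18.9% and 23.3% up to the seventh, and was 14.8%, 11.3% and 7.51% in the last 3. Their median percentile was 41.1, against 52.5 for the other Maf peaks. Promoter peaks late in the list were still mostly marked. In 5 successive equal parts of the list the share with H3K27ac was 98.0%, 99.2%, 95.3%, 89.1% and 88.3% for promoter peaks and 90.2%, 84.2%, 74.3%, 46.1% and 29.5% for the others. The difference within each part had an adjusted p between 1.87e-31 and 1.46e-05 (Fisher's exact test, Benjamini-Hochberg over 5). In the upper part of the list divided at its middle, the difference over all peaks shrank from 31.6 to 12.3 percentage points.

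**Figure D3:**
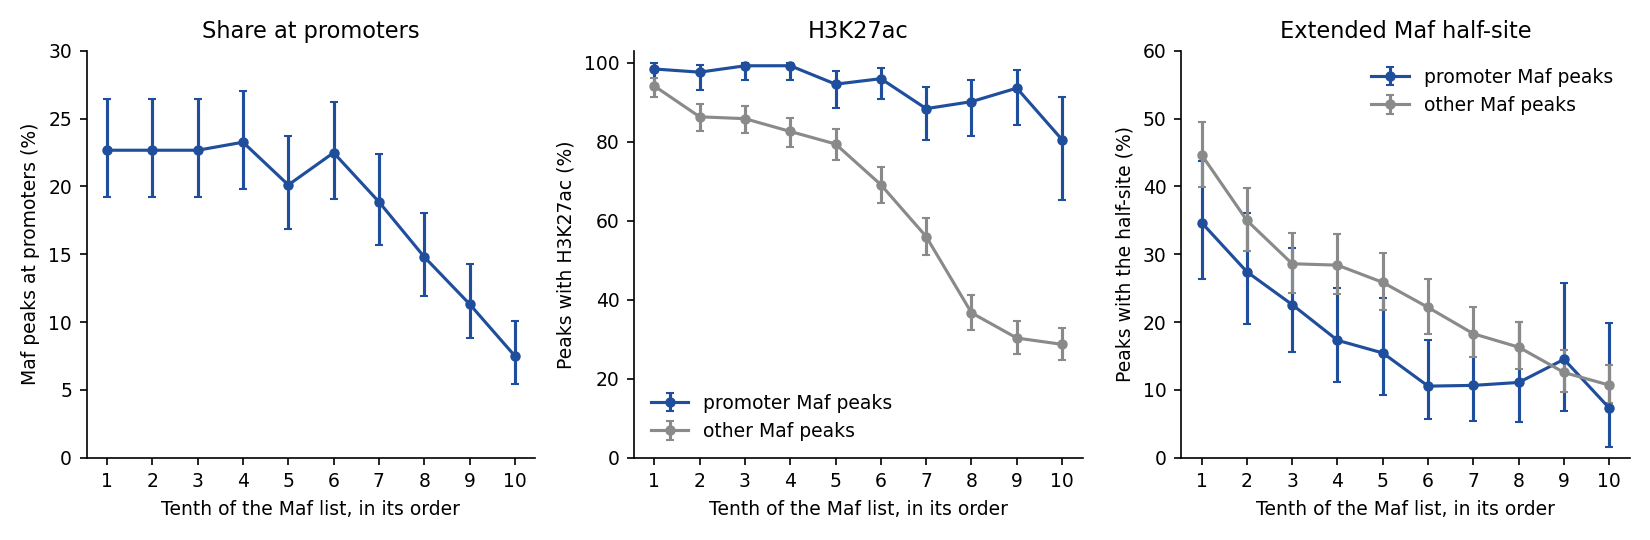
The 10 equal parts of the Maf replicate 2 list in its order (x axis) against the share of peaks at promoters (left), the share with H3K27ac (middle) and the share with the extended half-site (right), all in percent with 95% exact binomial intervals, for promoter peaks (blue) and other Maf peaks (gray). In the last part, 80.5% of promoter peaks and 28.7% of the others have H3K27ac.

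The 50 promoter peaks without H3K27ac stood late in the list (median percentile 66.3), and 36 of them were not CpG-rich. The 10 highest were at Usp50 (position 305), Prr5l (535), Arhgap22 (683), Coro2b (774), Ube2ql1 (1003), Atp8a1 (1521), Npas4 (1980), Scrt2 (2232), Adgb (2312) and Syt17 (2527). Npas4, an activity-induced transcription factor of neurons, held 5 half-sites. Arhgap22, which encodes a GTPase-activating protein, had a second unmarked promoter peak at position 4002.

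In their shares of Maf sites and the GC box, the promoter peaks lay between 2 comparison classes. Each peak was searched on both strands for 24 motifs and compared first with the other Maf peaks. The second class was windows of the same length centred on the 5′ ends of 11774 genes with H3K27ac at a start and no promoter Maf peak. These windows are centred on a start and the peaks lie at varied distances from one, so placement differs too. The palindromes were searched with up to 2 mismatches, the half-site lies within the extended half-site and can lie within a palindrome, and the palindrome with an AP-1-like core can contain an AP-1 site. Beside the motifs spelled out with their shares, the search covered the AP-1 site (TGACTCA, or with G in the middle), the CRE site (TGACGTCA) and its shorter arm without the last bases, the E-box CACGTG, the MEF3 site of muscle genes (TCAGGTT), the TATA box, the CCAAT box alone and after a pair of purines, the Yy1 site (AANATGGC), the Err site (TCAAGGTCA), the D-box (TTACGTAA, or with T for C) and, by name, the Mef2, CArG and Nrf1 sites and a palindrome with a CRE-like core. A match describes the letters only. The half-site TGCTGA occurred in 387 promoter peaks (38.0%), 53.8% of other Maf peaks and 14.2% of marked promoters without Maf (Fisher's exact test, adjusted p = 3.42e-19 and 2.63e-69). The extended form TGCTGAC occurred in 189 (18.5%), 23.7% and 3.41% (exact test, adjusted p = 0.000535 and 1.49e-67). The palindrome occurred in 94 (9.22%), 13.3% and 0.696% (exact test, adjusted p = 0.000561 and 5.67e-56), with at most 1 mismatch in 21 promoter peaks. Over the 5′ end windows of all 21829 genes the shares were 17.7%, 4.20% and 0.994%. A control, the extended half-site read backwards without complement (CAGTCGT), occurred in 1.18%, 0.855% and 1.27%.

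Half-sites sat near the middle of the promoter peaks, at a median of 29.5 bp from the centre for TGCTGA and 26 bp for TGCTGAC. The myogenic E-box CAGCTG was less central, with a median of 57.5 bp. The other Maf peaks had similar medians, at 26.5, 24 and 54.5 bp in the same order, so this centring is not particular to promoter peaks. The share of promoter peaks with TGCTGAC was 31.0%, 19.9%, 12.9%, 10.9% and 11.7% in the 5 successive parts of the list, and for other Maf peaks 39.8%, 28.5%, 24%, 17.3% and 11.6%. The first 4 parts differed (Fisher's exact test, adjusted p from 0.000793 to 0.0456) and in the last the shares did not differ detectably (adjusted p = 1).

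Elements of general promoters were the other side of this contrast. The GC box GGGCGG, bound by Sp factors, occurred in 50.9% of promoter peaks, 6.84% of other Maf peaks and 61.5% of marked promoters (exact test, adjusted p = 3.33e-218 and 2.53e-10). The ETS site CCGGAAG (9.72%, 1.62% and 17.1%) and the Nrf1 site (3.93%, 0.0899% and 9.32%) had the same order. In promoter peaks centred within 100 bp of a start, the GC box occurred in 66.1% and the ETS site in 14.7%. Over the 5′ end windows of all genes, the GC box, ETS and Nrf1 sites occurred in 45.4%, 11.2% and 6.01%. Of the elements of muscle and hormone-responsive genes, most were less frequent than at the other Maf peaks, and the CArG box, bound by serum response factor, was not (2.06% and 1.55%, exact test, adjusted p = 0.386). CAGCTG occurred in 17.3%, against 25.9% of other Maf peaks (exact test, adjusted p = 9.14e-09) and 16.0% of marked promoters (adjusted p = 0.355). The Mef2 site occurred in 3.43%, against 8.66% and 1.19% (exact test, adjusted p = 4.62e-09 and 7.96e-07), and the glucocorticoid response half-site AGAACA in 10.0%, against 23.9% and 9.87% (adjusted p = 1.32e-24 and 0.949). The antioxidant response element TGACNNNGC occurred in 22.4% of promoter peaks and 22.8% of other Maf peaks, a difference that was not called (exact test, adjusted p = 0.839), and was less frequent at marked promoters (13.9%, adjusted p = 2.01e-11). In all, 16 of 24 motifs differed from the other Maf peaks, 7 of them more frequent at promoters, and 17 of 24 differed from marked promoters.

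**Figure D4:**
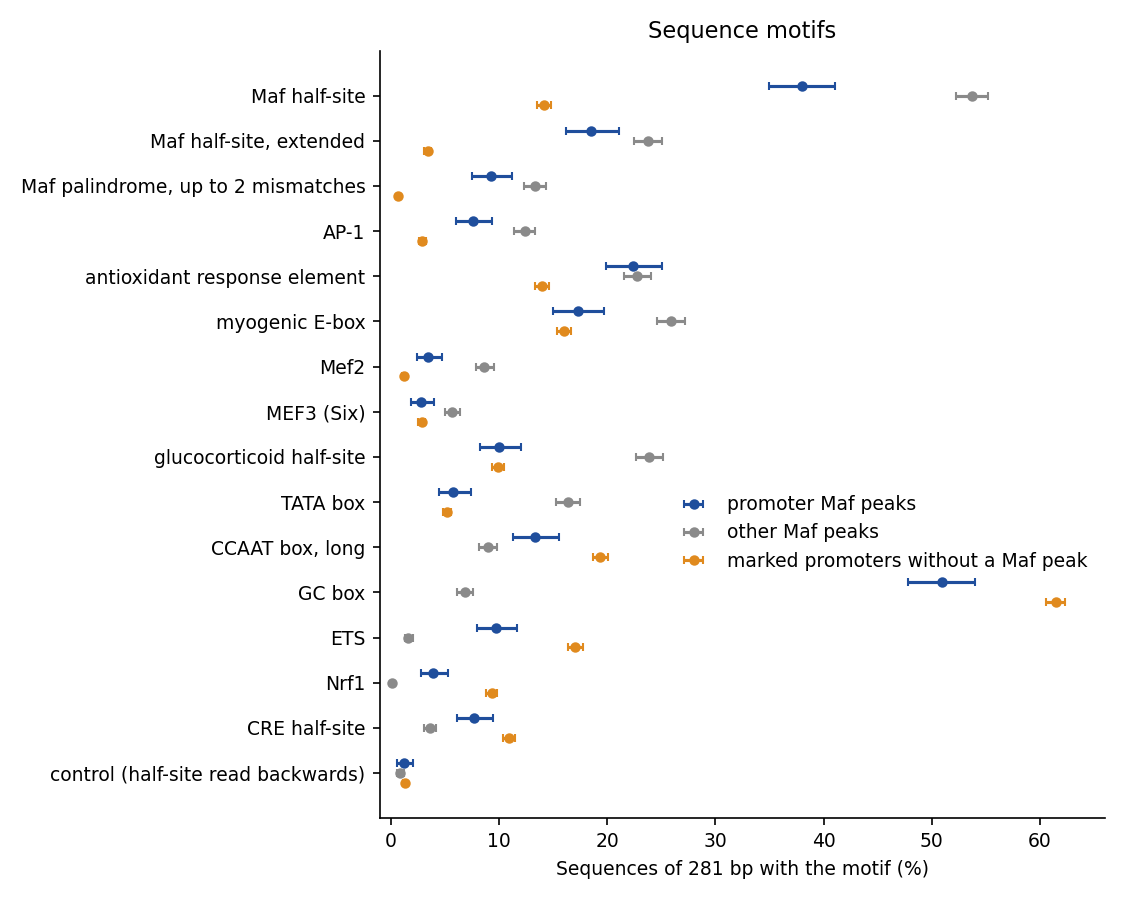
Share of sequences of peak length with each of 16 motifs (x axis, percent, with 95% exact binomial intervals) in promoter Maf peaks (blue), other Maf peaks (gray) and marked promoters without a Maf peak (orange). For the Maf half-site the promoter peaks lie between both other classes, at 38.0% against 53.8% and 14.2%, and for the GC box they lie near the promoters.

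Base composition moved with these differences, and comparison within composition classes, chosen after the shares were seen, changed which motifs were called against the other Maf peaks. Among peaks that were not CpG-rich, 441 promoter peaks and 4354 others, TGCTGAC occurred in 23.4% and 23.9% (exact test, adjusted p = 0.939), TGCTGA in 49.9% and 54.0% (adjusted p = 0.236) and the palindrome in 13.4% and 13.3% (adjusted p = 1). The difference in CAGCTG (23.4% and 26.1%) and Mef2 (6.58% and 8.80%) was not called there either (exact test, adjusted p = 0.426 and 0.281). The GC box (24.5% and 5.81%), TATAAA (10.7% and 16.6%) and AGAACA (14.7% and 24.2%) still differed (exact test, adjusted p = 6.96e-31, 0.00831 and 4.43e-05). Among CpG-rich peaks, 578 promoter peaks and only 93 others, TGCTGA occurred in 28.9% and 41.9%, a gap of similar size to that over all peaks that was not called (exact test, adjusted p = 0.0904). There the palindrome occurred in 6.06% and 10.8% (exact test, adjusted p = 0.343), TGCTGAC in 14.9% and 18.3% (adjusted p = 0.707), and the AP-1 site was less frequent at promoter peaks, at 4.84% and 14% (adjusted p = 0.0246). Against marked promoters without Maf, TGCTGAC kept its difference in both classes, at 14.9% and 2.82% of CpG-rich sequences (exact test, adjusted p = 2.35e-30) and 23.4% and 4.81% of the rest (adjusted p = 1.55e-32). The palindrome did so too, at 6.06% and 0.458% and at 13.4% and 1.27% (exact test, adjusted p = 7.16e-22 and 6.83e-30).

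The genes with promoter Maf peaks were then read against 39 gene lists, with 4.93% of all genes and 8.17% of genes with H3K27ac at a start as the background. A share over few genes has a wide interval, and no test was run on the lists. The share was above that of all genes in 32 lists, and above that of marked genes, among the marked genes of the list, in 30.

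**Figure D5:**
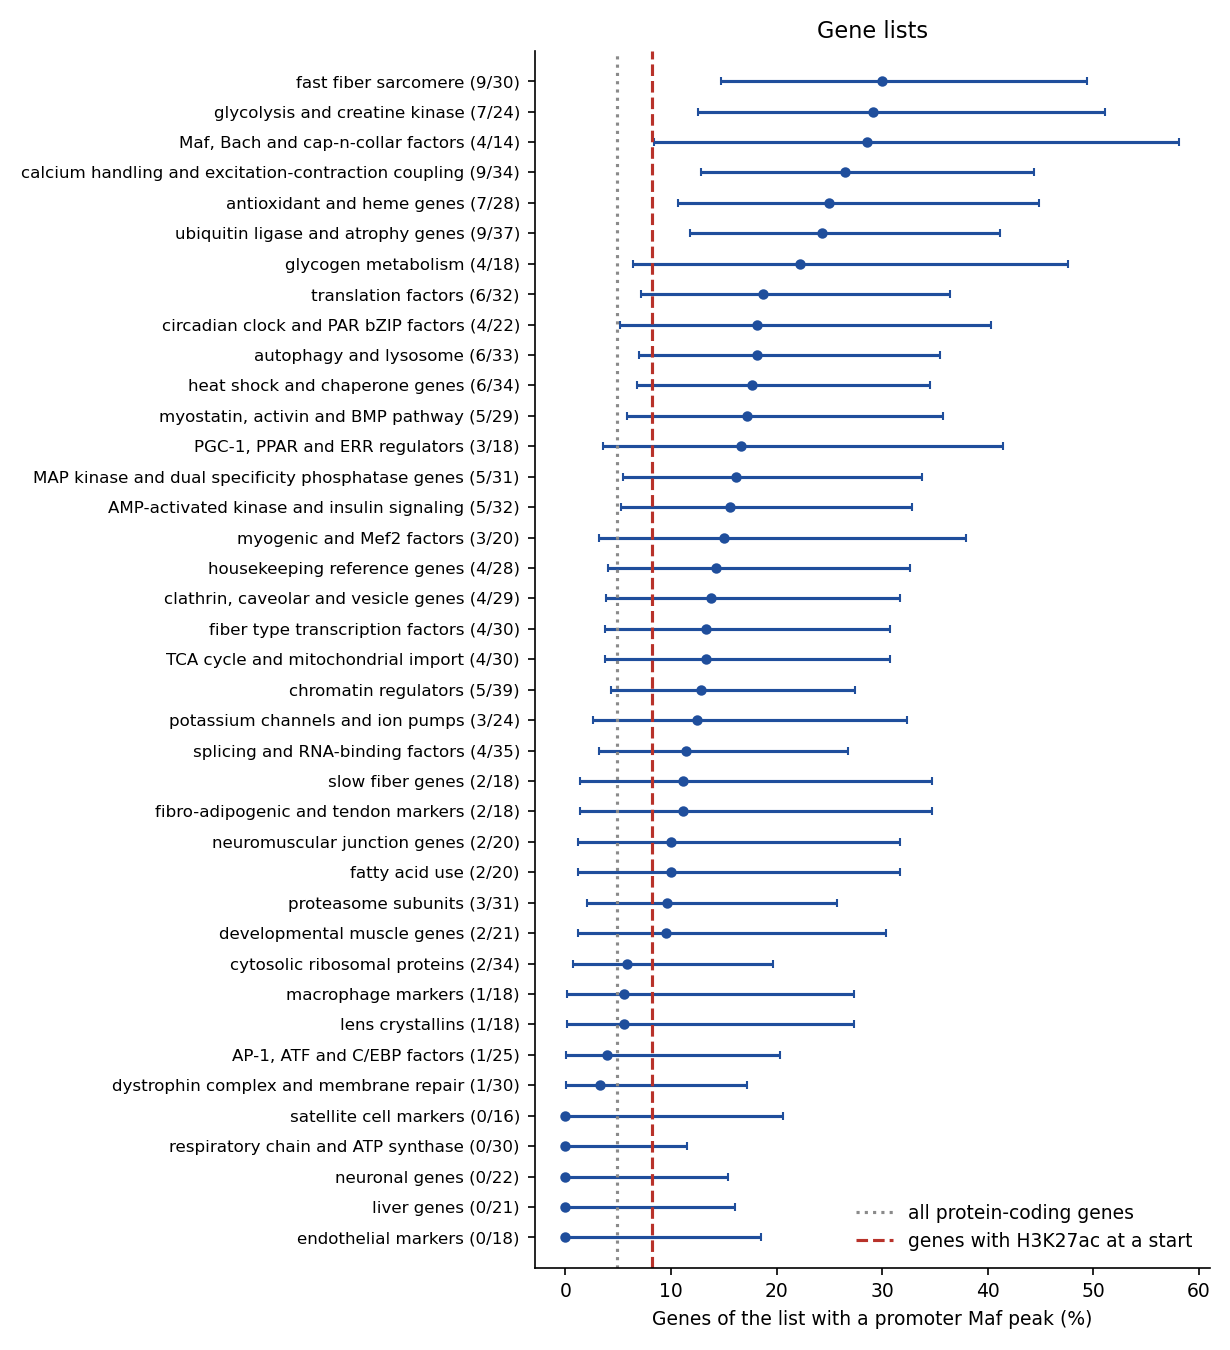
Share of the genes of each list with a promoter Maf peak (x axis, percent, points with 95% exact binomial intervals), with genes with a peak and genes measured in parentheses. The dotted line is the share of all protein-coding genes (4.93%) and the dashed line that of genes with H3K27ac at a start (8.17%), and the lists for fast fiber sarcomere and glycolysis stand at the top.

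Contractile genes of fast fibers held 9 genes with a promoter peak of 30. Actn3 stood highest (positions 61 and 124), followed by Ttn (240), the fast myosin heavy chain gene Myh4 (271), the fast myosin-binding protein Mybpc2 (822), Ldb3 (1325), Neb (nebulin, 1492), and, among those further down, Myl1 (1991) and Xirp2 (3338 and 3704). The slow fiber list held 2 of 18, Tppp3 (717) and the slow calcium pump Atp2a2 (4347). The intervals of the fast (14.7 to 49.4%) and slow (1.38 to 34.7%) shares overlap. All 30 fast genes had H3K27ac at a start but only 12 of the 18 slow genes. Among marked genes the shares were 30% and 16.7%, both above the 8.17% of all marked genes. Calcium handling and excitation-contraction coupling held 9 of 34. Beside Atp2a1 and Ryr1 they were Cacnb1 (372) and Cacna1s (693), subunits of the dihydropyridine receptor, the triad proteins Trdn (979) and Stac3 (1194), the calcineurin inhibitor Rcan1 (1231), Srl (1447) and Orai1, the store-operated calcium channel (2266).

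Genes of sugar metabolism also stood above the background, as did most of the lists. Glycolysis and creatine kinase held 7 of 24 genes, led by muscle creatine kinase Ckm (107), Eno3 (212), Ak1 (395) and Tpi1 (401), with Pgam2 (1196), Gpd2 (1493) and Pfkfb1 (3661) after them. Glycogen metabolism held 4 of 18, namely Phkg1 (231), the lysosomal glucosidase Gaa (992), the phosphatase targeting subunit Ppp1r3a (2769) and Pgm1 (3043). The interval of that share (6.41 to 47.6%) includes the 8.17% of marked genes. In contrast, none of the 30 respiratory chain and ATP synthase genes had a promoter peak, although all 30 had H3K27ac at a start. The upper limit of the exact interval for 0 of 30 is 11.6%, above the share of marked genes. The tricarboxylic acid cycle and import list held 4 of 30, of which Hspd1 and Hspe1 share 1 peak.

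Sequence features were also counted at a pool of muscle lists, without a test. The fast sarcomere, calcium, glycolysis and glycogen lists together held 29 of 106 genes (27.4%), at 32 peaks. The other lists held 105 of 886 (11.9%). They include further muscle lists with lower shares, so the contrast depends on which lists were pooled. These were slow fiber (2 of 18), developmental muscle (2 of 21), neuromuscular junction (2 of 20), myogenic and Mef2 (3 of 20) and dystrophin complex genes (1 of 30). Of the 32 peaks at the pooled lists, 4 (12.5%) were CpG-rich, 22 (68.8%) held TGCTGA, 11 held CAGCTG and 6 a Mef2 site. All 32 overlapped H3K27ac. The 110 promoter peaks at the other lists were CpG-rich in 55.5% and held TGCTGA in 44.5%. Over all promoter peaks that were not CpG-rich, TGCTGA occurred in 49.9%. These are counts over lists that were chosen with results of these data known.

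Lists on the redox and bZIP network had shares on both sides of the background, and their intervals overlap. The AP-1, ATF and C/EBP factors held 1 of 25 genes (4%, interval 0.101 to 20.4), namely Atf6. That share is below the 4.93% of all genes, and its interval includes both background shares. Of 14 Maf, Bach and cap-n-collar genes, 4 had a promoter peak (28.6%, interval 8.39 to 58.1). They were Mafg, Nfe2l1 (783), the repressor Bach1 (3617) and the large Maf factor Mafa (5284). The Nfe2l1 peak held 2 half-sites and a palindrome with up to 2 mismatches, and the peaks at Bach1 and Mafa held no half-site. Maf itself and Nfe2l2 had none. Antioxidant and heme genes held 7 of 28 (25%, interval 10.7 to 44.9). The sulfiredoxin gene Srxn1 (116) and the peroxiredoxin gene Prdx1 (756) each had an AP-1 site and no half-site, and catalase (Cat, 1037) had 1 half-site. Thioredoxin (Txn1, 2030), Prdx5 (2657), Hmox1, the heme oxygenase (3131), and Txnrd2 (3608) followed.

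Shares of the lists on protein turnover and synthesis ran from 5.88% (interval 0.720 to 19.7) for ribosomal proteins to 24.3% (11.8 to 41.2) for ubiquitin ligase and atrophy genes. Their intervals overlap, and only the last lies above the 8.17% of marked genes. The ubiquitin ligase and atrophy list held 9 of 37, led by Fbxo40 (424), the growth arrest gene Gadd45a (710), the deubiquitinase Usp2 (720) and Ube2d1 (1074), and it included myostatin (Mstn, 1788). Proteasome subunits held 3 of 31 (9.68%, interval 2.04 to 25.8), with Psmc5 (294) highest. Heat shock and chaperone genes held 6 of 34, among them Fkbp5 (34), Dnajb5 (158) and Dnaja1 (230). Translation factors held 6 of 32, with the cap-binding protein Eif4e (263) and the muscle elongation factor Eef1a2 (501) highest. Autophagy and lysosome genes held 6 of 33, with Wipi1 (453), Ulk2 (676) and Tfeb highest, and circadian genes 4 of 22, namely Dbp (1163), Arntl (1286), Rora (2551) and Clock (5028). Cytosolic ribosomal proteins held 2 of 34, with Rpl32 (1856) the higher, close to the share of all genes. Developmental muscle genes held 2 of 21, Etv5 (238) and Myog (1485), and the 18 lens crystallins, classic targets of large Maf factors, held 1. That one, Crybb1, stood at position 98 with H3K27ac and a palindrome with 2 mismatches, 73 bp upstream of its start. No gene of the endothelial, satellite cell, liver or neuronal lists had a promoter peak.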

How the data were processed

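Per the labels, the authors' processing used bcl2fastq 2.17, FastQC, Bowtie2 2.3.2, Picard 2.10.3 and HOMER with the mm10 (GRCm38) build. The study names a false discovery rate threshold for its Maf peaks. Other peak calling settings and any use of the input samples in calling are not given in the sources used here. The deposited lists have 6 columns, of which the score is 1 in every entry, so the authors' score ranks nothing. The input samples were not analysed here. One Maf peak on an unplaced scaffold was not read for sequence.

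Promoters were 1 kb around starts of protein-coding transcripts in the GENCODE annotation of GRCm38. Overlap meant at least 1 bp. H3K27ac regions of both replicates were merged. Shares carry 95% exact (Clopper-Pearson) intervals, which cover counting error only, and were compared by two-sided Fisher's exact tests with Benjamini-Hochberg adjustment over 24 motifs or 5 list parts and a threshold of 0.05 (Python 3.11.15, SciPy 1.17.1, pandas 2.3.3, numpy 2.4.6, matplotlib 3.10.9). Counting, motif search and tests were checked on simulated data. Sequences came from GRCm38.

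Named genes were those of the first 20 promoter peaks, of peaks shared with replicate 1, the up to 4 highest in each list, those the study named, the 10 highest peaks without H3K27ac, with a palindrome of at most 1 mismatch and between genes on opposite strands, genes with most peaks, and the 5 nearest the limit on either side. Lists at the top of the order were given with more of their genes, which was decided after values were seen, as were the whole peaks of Txnip and Arntl and the short windows over untranslated exons. The promoter peaks and lists were chosen with earlier results of these data known. Of 1018 list entries, 1011 matched the annotation. Alternatives covered the set of starts, the distance, the centre rule, list order and replicate, peaks with H3K27ac only, and shifted windows. The GENCODE basic set and the composition classes were added after seeing the data.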

Additional observations from a re-analysis of the deposited data

How the results depend on the processing

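No paired analysis was possible because each test compares peaks within 1 Maf list and not samples. The promoter share of 18.6% was 15.4% with the 5′ end of each gene only, 21.3% with transcripts of any type, 16.1% within 500 bp, 22.1% within 2000 bp, 22.3% in the upper part of the list divided at its middle and 6.76% in the replicate 1 list, which holds 74 peaks. The difference in H3K27ac of 31.6 percentage points does not use Maf replicate 1, so leaving that library out does not change it. The difference ranged from 33.5 to 36.2 when 1 of the other libraries was left out, and was 12.3 in the upper part of the list. Without Maf replicate 2 it was 36.2 and was not called (exact p = 0.160, with 5 promoter peaks). The share of genes with a promoter peak was 4.14% with the 5′ ends, 8.17% of marked genes and 2.96% with that upper part. Of 24 motifs, 5 differed from other Maf peaks among those not CpG-rich and 3 among CpG-rich peaks, against 16 over all peaks, and 9 differed from marked promoters among sequences not CpG-rich, against 17. These classes hold fewer sequences. Of the motif differences called over all sequences, those that changed sign, none of them called after the change, were in peaks not CpG-rich 0.0346 points for the palindrome, −0.256 for the CRE site and −0.543 for the CRE half-site, in CpG-rich peaks −0.0744 for the CRE site and −1.20 for CACGTG, and against marked promoters not CpG-rich 0.00222 for the YY1 site. The CCAAT box, not called over all peaks (−0.0809 points), was more frequent at promoter peaks by 4.48 points in the upper part of the list (exact test, adjusted p = 0.0480). Other motif differences that were not called over all sequences also changed sign and were not called after it. The cause of these changes was not tested. With windows centred 100 bp upstream, CAGCTG was more frequent at promoter peaks than at marked promoters by 3.05 points (exact test, adjusted p = 0.0139). Depth is unknown and could not be weighed.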
